A study of Mus musculus with 9 samples.

Results

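The response common to blocking and to deleting the mitochondrial pyruvate carrier was read from 6 RNA-seq libraries of mouse prostate organoids set against 3 control libraries. The 6 libraries were 3 of UK5099, organoids given 10 µM of this chemical inhibitor of the carrier for 1 week, and 3 of Mpc1-KO, organoids in which the gene for one carrier subunit had been removed with Cre. The 3 Vehicle libraries received neither. A gene counted as common to both when all 6 of its values lay above, or all 6 lay below, all 3 of its Vehicle values. The rule was met by 2034 of the 12396 genes whose mean over the 9 libraries reached 1 CPM (counts per gene scaled to the same library total), which is 16.4%. Of these, 1024 lay above Vehicle (8.26%) and 1010 below it (8.15%).

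All 9 libraries came from basal-derived organoids of male mice homozygous for a floxed Mpc1 allele on a mixed C57BL/6N and C57BL/6J background, whose age is not given for these samples. The series' design names an RFP (red fluorescent protein) virus for UK5099 and Vehicle and a Cre virus for Mpc1-KO. The study's methods, where they describe how Mpc1-KO organoids were made, have basal prostate cells infected with lentivirus carrying RFP alone or Cre with RFP before culture and fluorescent cells sorted later, so that Mpc1-KO organoids were a sorted population and not a clone. Mpc1-KO organoids received vehicle. Cre expression and loss of Mpc1 therefore went together and cannot be told apart, and the time since deletion and the time under the drug need not be equal. The labels number 3 samples per group and do not say whether these were separate animals or cultures, so p-values measure only the spread between these samples.

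The carrier is a complex of MPC1 and MPC2 in the inner mitochondrial membrane that passes pyruvate made by glycolysis into the matrix, where pyruvate dehydrogenase and pyruvate carboxylase feed it to the TCA cycle. In the prostate, basal cells carry KRT5 and p63 and can give rise to luminal cells, which carry KRT8 and KRT18 and secrete prostatic fluid. The comparison asked which transcripts moved the same way when pyruvate entry was blocked by a drug and when it was removed by deletion.

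The targeted gene matched the labels. Mpc1 had 2.04, 2.47 and 2.30 CPM in UK5099 libraries and 0.522, 0.533 and 0.598 CPM in Mpc1-KO libraries, against 2.36, 2.41 and 2.38 CPM in Vehicle libraries, so that only the deletion lowered it (log2 fold change -1.46 ± 0.14 SE, limma adjusted p = 0.000667 for Mpc1-KO and -0.06 ± 0.14, adjusted p = 0.768 for UK5099, n = 3 each). These levels rest on 38 to 65 reads per UK5099 library, 12 to 15 per Mpc1-KO library and 52 to 66 per Vehicle library. Depth was 16490828 to 28725524 reads per library. On principal components of all genes tested, the 3 UK5099 libraries lay at 41.4 to 49.5 on the first (65.8% of the variance) and the other 6 at -27.8 to -17.6, while UK5099 1 (27.2) and Vehicle 1 (21.3) stood apart from their own groups on the second (17.3%). The median SD between replicates on the log2 scale was 0.181 in UK5099, 0.061 in Mpc1-KO and 0.088 in Vehicle. The labelled epithelium was present, since 7 basal markers summed to 17080 to 20650 CPM in UK5099, 8055 to 8495 CPM in Mpc1-KO and 7923 to 8811 CPM in Vehicle, and none of 7 luminal markers was near 0. Short panels of 5 endothelial, 5 neuroendocrine and 4 seminal vesicle markers summed to at most 1.09, 0.376 and 0.0418 CPM. Longer lists of 10 endothelial and 10 neuroendocrine genes were not near 0, with sums of 39.4 to 93.8 and 9.29 to 44.2 CPM per library. Of these genes, Esam lay above and Flt1 and Ncam1 below Vehicle in all 6 UK5099 and Mpc1-KO libraries.

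In a test that gave UK5099 and Mpc1-KO equal weight against Vehicle (limma on log2(CPM + 0.5), Benjamini-Hochberg adjustment over the 12396 genes), 1480 genes rose (11.9%) and 1381 fell (11.1%), 23.1% of all genes tested together. Against Vehicle on its own, UK5099 changed 38.1% of genes (19.9% higher and 18.2% lower) and Mpc1-KO 10.7% (5.64% higher and 5.03% lower). The fit used a single spread per gene for the 3 groups, so the wider spread of UK5099 replicates also entered every test of Mpc1-KO against Vehicle. A gene that did not pass in Mpc1-KO alone may thus still have been separated from Vehicle. Fold changes on this scale are understated for genes of a few CPM. This pooled test can pass a gene that moved in 1 arm only: 626 of the genes that rose and 518 of those that fell had values overlapping the Vehicle range, Mpc1 being among those that fell. The stricter rule of no overlap kept 854 of the genes that rose and 863 of those that fell, and brought in 170 further genes above and 147 below that did not pass the test. As a description of what the rule chose, the 1024 genes above had a median log2 fold change of 0.46 in UK5099 and 0.27 in Mpc1-KO, and the 1010 genes below had medians of -0.65 and -0.33. Changes of more than 2-fold in both arms were few, 17 genes above and 81 below. At the edge of the rule among genes above, Rexo4, with 38.8, 33.8 and 34.4 CPM in UK5099, 37.0, 35.1 and 34.4 CPM in Mpc1-KO and 33.8, 31.7 and 30.9 CPM in Vehicle, was just inside it. Glt28d2, with 8.58, 10.1 and 8.73 CPM in UK5099, 6.75, 5.69 and 5.56 CPM in Mpc1-KO and 5.53, 5.51 and 5.56 CPM in Vehicle, was just outside. Among genes below, Pik3c3, with 37.3, 37.8 and 36.1 CPM in UK5099, 41.0, 39.8 and 39.3 CPM in Mpc1-KO and 41.0, 41.3 and 42.9 CPM in Vehicle, was just inside, and Kctd5, with 85.4, 83.1 and 88.0 CPM in UK5099, 88.9, 86.0 and 88.2 CPM in Mpc1-KO and 90.2, 88.9 and 90.3 CPM in Vehicle, just outside. Members at this edge were thus separated from Vehicle by less than the spread within a group.

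Over all genes tested, 11.9% rose and 11.1% fell in the pooled test, and 8.26% lay above and 8.15% below Vehicle in all 6 libraries. In the test of UK5099 against Mpc1-KO, 23.2% were higher and 21.1% lower in UK5099. The counts of each list below are to be read beside these shares. Of the 30 gene lists with at least 10 measured members, genes of cell division had the largest share above Vehicle in both arms. Of 84 measured mitosis and kinetochore genes, 75 rose and none fell in the pooled test (median log2 fold change 0.73, against 0.01 over all genes tested), and 67 lay above Vehicle in all 6 libraries, or 79.8% against the 8.26% of all genes. The rise was seen in each arm on its own, with 71 genes passing in UK5099 and 69 in Mpc1-KO. In a fit that treated the 6 libraries as a single group, so that any gap between drug and deletion counted as noise, 58 of the 84 still passed. Mki67, a marker of cycling cells, had 199, 256 and 185 CPM in UK5099 and 232, 239 and 253 CPM in Mpc1-KO, against 139, 103 and 102 CPM in Vehicle. The ranges did not overlap, although Vehicle 1 was well above Vehicle 2 and 3 (pooled log2 fold change 0.99 ± 0.12 SE, adjusted p = 0.000351). Sgo2a, shugoshin-2A, which protects centromeric cohesion in meiosis, had 27.2, 28.2 and 24.6 CPM in UK5099 and 29.1, 28.8 and 27.7 CPM in Mpc1-KO, against 15.2, 12.9 and 11.9 CPM in Vehicle (1.03 ± 0.09, adjusted p = 5.14e-05). The anaphase helicase gene Ercc6l had 7.50, 8.72 and 6.91 CPM in UK5099 and 7.87, 6.44 and 7.26 CPM in Mpc1-KO, against 5.30, 3.07 and 2.30 CPM in Vehicle. The kinesin gene Kif2c had 13.9, 15.8 and 12.4 CPM in UK5099 and 14.2, 14.0 and 15.4 CPM in Mpc1-KO, against 9.61, 6.42 and 6.65 CPM in Vehicle. Neither differed between drug and deletion beyond the replicate spread (UK5099 minus Mpc1-KO 0.09 ± 0.23 and -0.05 ± 0.15 SE).

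**Figure D1:**
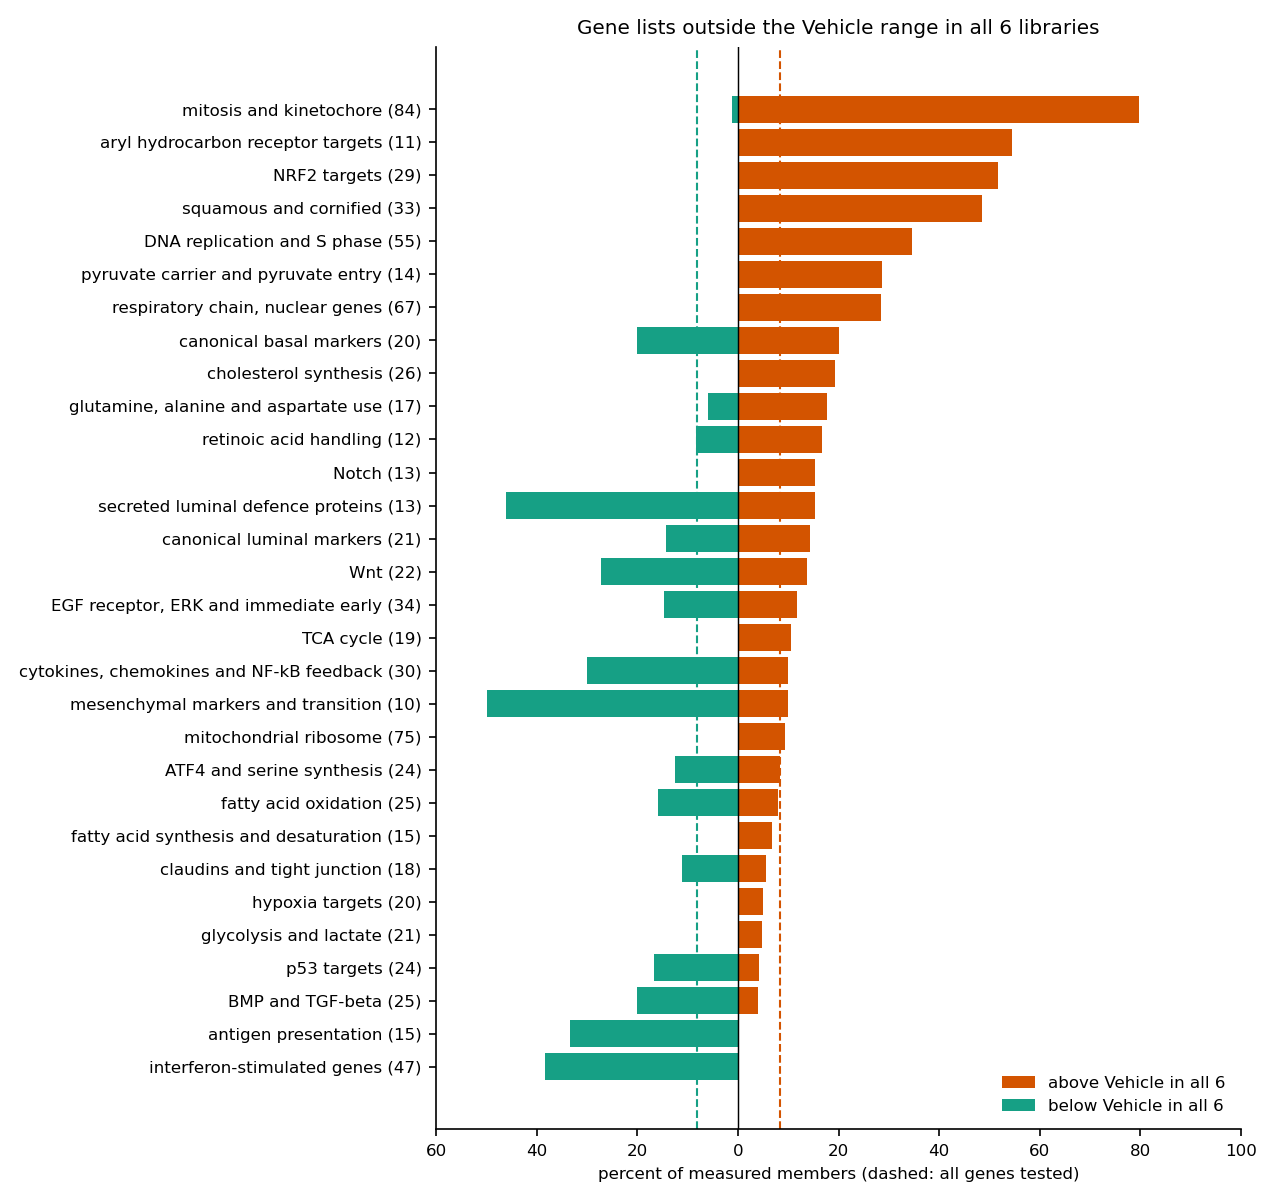
Share of the measured members of each gene list (number measured in brackets, lists with at least 10) that lay above Vehicle in all 6 UK5099 and Mpc1-KO libraries (bars to the right, percent) or below it (bars to the left, percent); dashed lines mark the shares over all genes tested, 8.26% and 8.15%. Mitosis and kinetochore genes reached 79.8% above, and interferon-stimulated genes 38.3% below with none above.

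Promoters of the listed mitotic genes were searched for a sequence element, as a description of the list. The cell cycle homology region, TTTGAA, is the element through which the DREAM and MMB complexes time late cell cycle genes. It was searched on both strands in RefSeq windows from 250 bases before to 50 after the transcription start (GRCm38.p6). Windows were found for 69 of the 84 genes, and 62.3% of their 77 windows held it, against 17.9% of all 32851 windows in the table. Of 59 windows of the members above Vehicle in all 6 libraries, 66.1% held it. That is close to the share over the list, which was written from textbook knowledge. The shares thus describe the list and not an effect of drug or deletion. A match is a description of the letters and not evidence of binding. Windows of 4 genes are shown because their motif lies within 200 bases of the start, of Mki67 (chr7:135716380-135716579), Kif2c (chr4:117178773-117178972), Cdk1 (chr10:69352913-69353112) and Top2a (chr11:99024190-99024389), all on the minus strand. They are written 5′ to 3′ and end at the base before the start, and capitals mark the motif in either orientation.
Mki67: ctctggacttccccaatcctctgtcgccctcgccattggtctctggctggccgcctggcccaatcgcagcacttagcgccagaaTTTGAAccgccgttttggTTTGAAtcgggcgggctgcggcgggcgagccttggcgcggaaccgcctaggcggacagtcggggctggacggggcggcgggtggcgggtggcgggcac
Kif2c: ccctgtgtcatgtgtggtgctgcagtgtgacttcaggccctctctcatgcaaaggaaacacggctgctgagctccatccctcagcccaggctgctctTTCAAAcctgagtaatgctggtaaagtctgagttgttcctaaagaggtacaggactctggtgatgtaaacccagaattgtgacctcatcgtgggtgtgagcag
Cdk1: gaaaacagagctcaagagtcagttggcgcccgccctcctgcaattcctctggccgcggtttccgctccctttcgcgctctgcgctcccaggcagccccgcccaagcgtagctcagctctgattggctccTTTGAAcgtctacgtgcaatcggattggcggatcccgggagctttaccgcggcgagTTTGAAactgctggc
Top2a: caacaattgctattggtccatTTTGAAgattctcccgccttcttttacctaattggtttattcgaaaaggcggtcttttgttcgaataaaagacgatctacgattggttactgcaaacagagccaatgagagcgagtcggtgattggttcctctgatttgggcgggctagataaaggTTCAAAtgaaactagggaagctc
Cdk1, the kinase that drives entry into mitosis, and Top2a, the topoisomerase that untangles chromosomes, were chosen for this display after their values were seen. Cdk1 had 36.0, 42.4 and 33.0 CPM in UK5099 and 44.1, 43.4 and 42.8 CPM in Mpc1-KO, against 30.9, 25.5 and 25.5 CPM in Vehicle. Top2a had 158, 199.8 and 163 CPM in UK5099 and 194, 197 and 198 CPM in Mpc1-KO, against 121, 91.8 and 96.9 CPM in Vehicle.

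Some division genes went further in the deletion than with the drug. Of the 84, 20 were lower in UK5099 than in Mpc1-KO in the test of the difference and 2 were higher. Over all genes tested 21.1% were lower and 23.2% higher, so the number lower was near the share of all genes. Anln, anillin of the cleavage furrow, had 85.3, 122 and 105 CPM in UK5099 and 150.2, 151 and 144 CPM in Mpc1-KO, against 77.3, 71.9 and 79.3 CPM in Vehicle (UK5099 minus Mpc1-KO -0.52 ± 0.11 SE, adjusted p = 0.00367). Esco2, which acetylates cohesin, had 10.3, 10.4 and 9.88 CPM in UK5099 and 14.3, 15.2 and 16.6 CPM in Mpc1-KO, against 7.97, 9.05 and 6.73 CPM in Vehicle (-0.57 ± 0.12, adjusted p = 0.00388). Prr11, a cell cycle gene, had 18.0, 22.6 and 25 CPM in UK5099 and 34.0, 33.3 and 33.5 CPM in Mpc1-KO, against 16.1, 16.4 and 14.1 CPM in Vehicle (-0.62 ± 0.12, adjusted p = 0.00226). In all 3 genes every Mpc1-KO value lay above every UK5099 value. The single list member below Vehicle in all 6 libraries was Pttg1, securin, which did not pass the pooled test (-0.20 ± 0.08, adjusted p = 0.0979) and overlapped Vehicle after either rescaling of the libraries. These libraries are of bulk RNA, so a larger share of dividing cells and more of these transcripts per cell cannot be told apart.

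Of 55 measured genes of DNA replication and S phase, 28 rose and none fell, with 19 above Vehicle in all 6 libraries (34.5%) and a median log2 fold change of 0.48 in UK5099 and 0.31 in Mpc1-KO. On its own UK5099 raised 36 of them and Mpc1-KO 5, and 4 passed with the 6 libraries as a single group. E2f8, a repressor of E2F targets late in S phase, had 37.4, 45.6 and 42.4 CPM in UK5099 and 39.8, 40.0 and 42.0 CPM in Mpc1-KO, against 28.2, 26.5 and 26.7 CPM in Vehicle (0.59 ± 0.07, adjusted p = 0.000299). Mcm5, a subunit of the replicative helicase, had 26.7, 35.2 and 20.1 CPM in UK5099, 18.8, 16.8 and 17.6 CPM in Mpc1-KO and 16.2, 10.2 and 9.74 CPM in Vehicle, where Vehicle 1 nearly reached the Mpc1-KO values. The primase gene Prim1 had 7.66, 8.95 and 5.70 CPM in UK5099 and 5.54, 5.16 and 4.32 CPM in Mpc1-KO, against 3.76, 2.66 and 2.93 CPM in Vehicle. The count of 28 depended on single libraries, being 18 without Mpc1-KO 1, 9 without Vehicle 2 and 7 without Vehicle 3, while 39 genes lay above Vehicle once Vehicle 1 was left out. Cdkn2a, which encodes the cell cycle inhibitors INK4A and ARF and was picked after its values were seen, fell, with 26.3, 14.7 and 16.1 CPM in UK5099 and 17.1, 20.4 and 20.1 CPM in Mpc1-KO, against 49.1, 41.1 and 42.3 CPM in Vehicle (-1.21 ± 0.16, adjusted p = 0.000622).

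**Figure D2:**
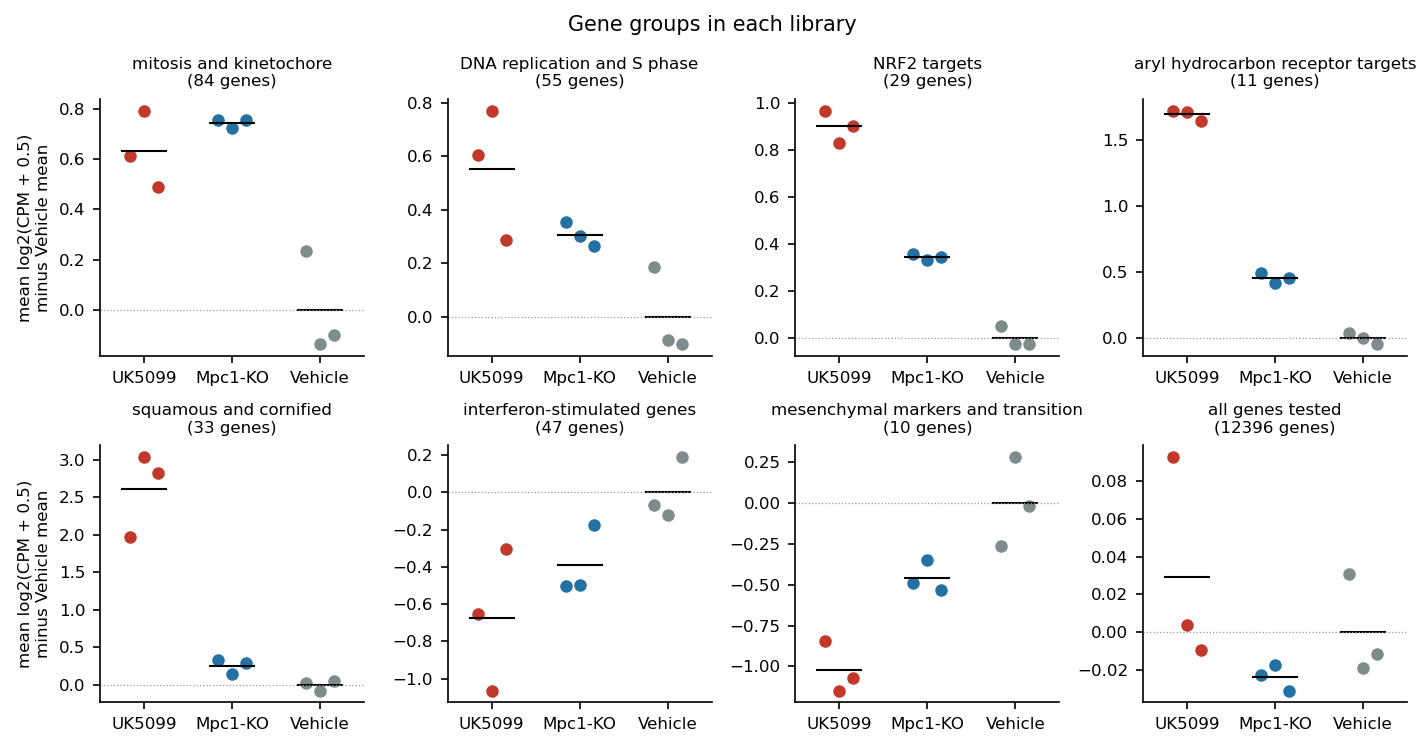
Mean over the members of each gene group of log2(CPM + 0.5) minus the Vehicle mean, for each library (points, replicates 1 to 3 from left to right) of UK5099, Mpc1-KO and Vehicle; black bars are group means and each panel has its own scale. Mitosis genes averaged 0.49 to 0.79 in UK5099 and 0.73 to 0.76 in Mpc1-KO against -0.14 to 0.24 in Vehicle, whereas squamous genes averaged 1.96 to 3.03 in UK5099 and 0.14 to 0.33 in Mpc1-KO against -0.08 to 0.05 in Vehicle.

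Several single genes moved by nearly the same amount in both arms. Apoe, which carries lipid between cells, had 21.9, 33.8 and 49.7 CPM in UK5099 and 37.8, 28.4 and 36.7 CPM in Mpc1-KO, against 5.94, 7.30 and 7.90 CPM in Vehicle. Every value of the 6 libraries was above the highest Vehicle value by at least 1.42 on the log2 scale, the widest gap of the 1024 genes above, and the changes were 2.17 ± 0.25 in UK5099 and 2.20 ± 0.25 in Mpc1-KO (difference -0.03 ± 0.25 SE). The receptor tyrosine kinase gene Fgfr3 had 23.2, 41.1 and 38.9 CPM in UK5099 and 31.6, 28.6 and 29.3 CPM in Mpc1-KO, against 10.9, 9.56 and 11 CPM in Vehicle (1.55 ± 0.16, adjusted p = 0.000146). In the other direction, Odaph, named for a phosphoprotein of tooth enamel, had 6.98, 6.02 and 5.46 CPM in UK5099 and 5.54, 7.87 and 4.87 CPM in Mpc1-KO, against 32.3, 31.1 and 32.4 CPM in Vehicle. The changes were -2.29 ± 0.16 in UK5099 and -2.32 ± 0.16 in Mpc1-KO, and the groups were separated by 1.92 on the log2 scale. Piezo2, a mechanically gated ion channel, had 3.65, 4.53 and 1.09 CPM in UK5099 and 2.02, 2.09 and 2.90 CPM in Mpc1-KO, against 14.9, 14.5 and 13.0 CPM in Vehicle. The adenylyl cyclase gene Adcy7 had 7.42, 5.83 and 3.40 CPM in UK5099 and 4.07, 5.96 and 5.19 CPM in Mpc1-KO, against 15.8, 17.6 and 15.6 CPM in Vehicle, and the 6 values were mixed between the arms. The orphan receptor gene Gpr153 had 11.2, 3.35 and 4.97 CPM in UK5099 and 5.33, 7.02 and 5.61 CPM in Mpc1-KO, against 17.6, 20.9 and 20.7 CPM in Vehicle. With the 6 libraries fitted as a single group, 232 genes rose and 221 fell, of which 231 and 221 lay outside the Vehicle range.

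**Figure D3:**
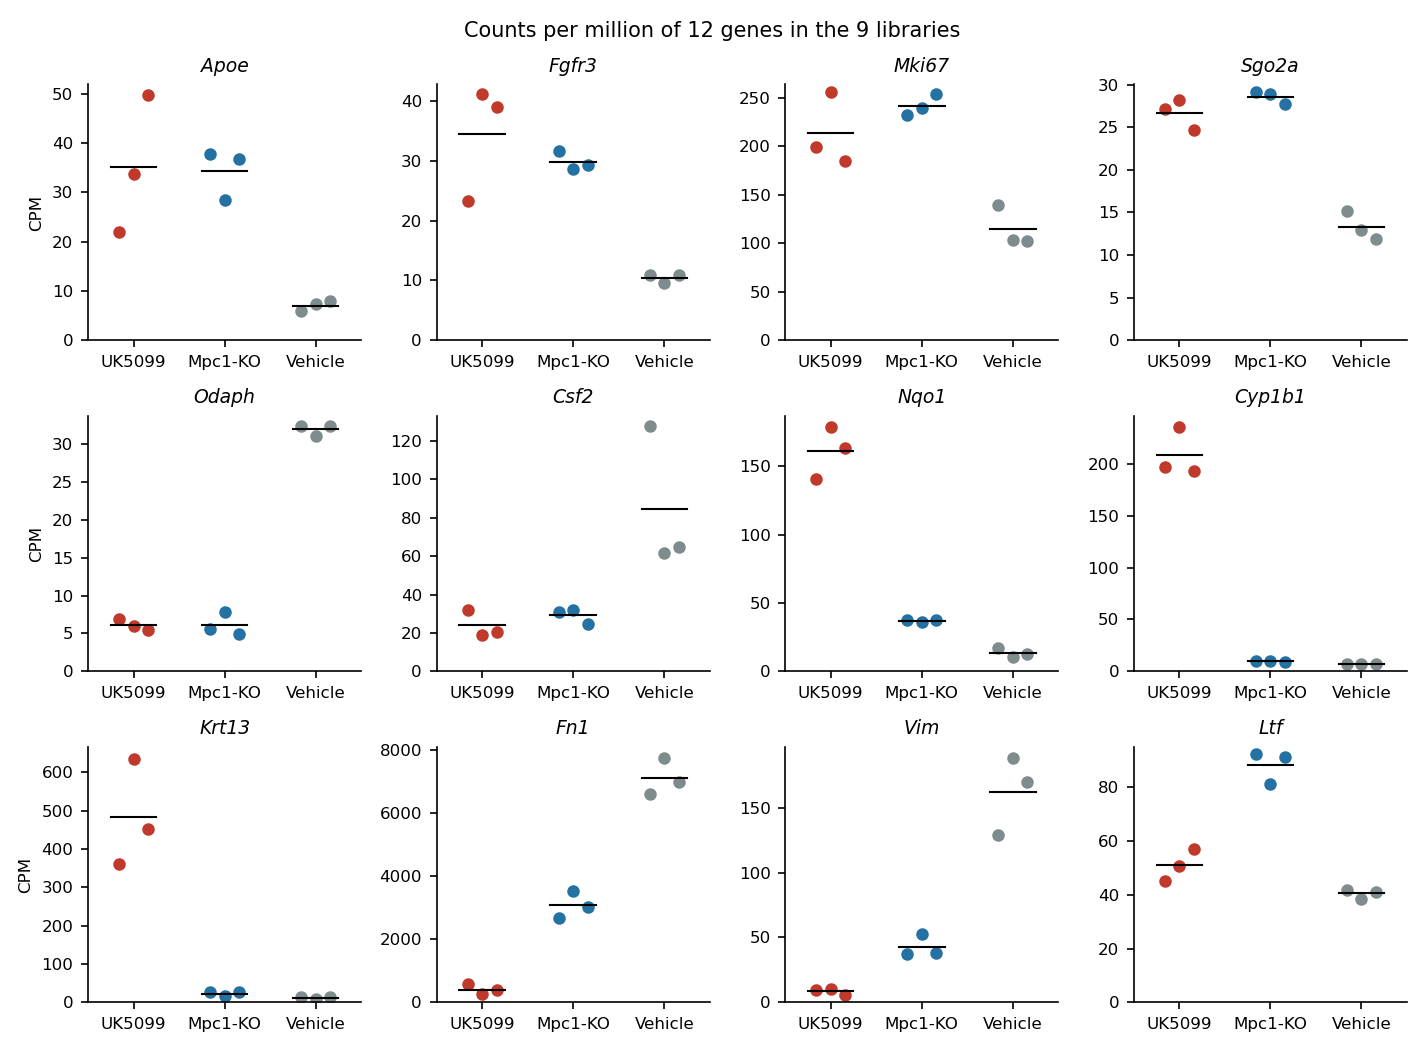
CPM of 12 genes in each library (points, replicates 1 to 3 from left to right) of UK5099, Mpc1-KO and Vehicle; black bars are group means, each panel has its own scale and starts at 0. Apoe, Fgfr3, Mki67, Sgo2a, Odaph and Csf2 lay at similar levels in UK5099 and Mpc1-KO and apart from Vehicle, Nqo1, Cyp1b1, Krt13, Fn1 and Vim lay further from Vehicle in UK5099, and Ltf lay further in Mpc1-KO.

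Drug and deletion were then compared with each other, in a test that passed for 44.4% of all genes tested. The members were chosen from the same UK5099 and Mpc1-KO values, so the counts below describe the members and are not an independent test of them. Of the 1024 genes above, 362 were higher in UK5099 than in Mpc1-KO (35.4%, against 23.2% of all genes tested), 37 were lower (3.61%, against 21.1%) and 625 did not pass. Of the 1010 below, 464 were lower in UK5099 (45.9%), 19 were higher (1.88%) and 527 did not pass. Without regard to a test, all 3 UK5099 values lay beyond all 3 Mpc1-KO values for 439 of the genes above and 507 of those below, and the reverse held for 66 and 33. Missing the threshold does not show that drug and deletion moved a gene alike.

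**Figure D4:**
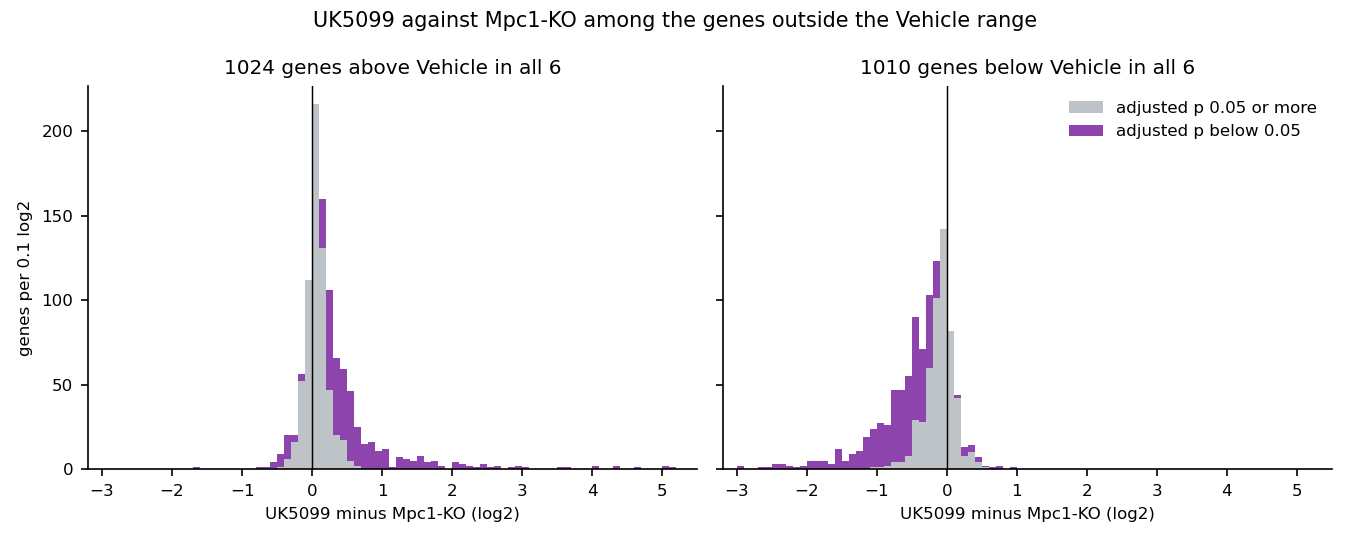
Histogram of UK5099 minus Mpc1-KO (log2 difference, bins of 0.1) for the 1024 genes above Vehicle in all 6 libraries and the 1010 below it; purple marks genes with a limma adjusted p below 0.05 and grey the others. Of the genes above, 362 were higher in UK5099 and 37 lower, and of those below, 464 were lower in UK5099 and 19 higher.

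Genes of the NRF2 programme, which counters oxidants and electrophiles, rose in both arms. Of 29 measured, 20 rose and none fell, and 15 lay above Vehicle in all 6 libraries (51.7%), with medians of 0.45 in UK5099 and 0.27 in Mpc1-KO. Nqo1, the quinone reductase, had 141, 179 and 163 CPM in UK5099 and 37.7, 36.3 and 37.3 CPM in Mpc1-KO, against 17.0, 10.8 and 12.9 CPM in Vehicle (UK5099 3.53 ± 0.14, Mpc1-KO 1.44 ± 0.14, adjusted p = 3.35e-07 and 0.000845). Slc7a11, the cystine importer, had 828, 368 and 444 CPM in UK5099, 197, 189 and 207 CPM in Mpc1-KO and 142, 105 and 106 CPM in Vehicle. The Mpc1-KO change of 0.76 ± 0.25 did not pass on its own (adjusted p = 0.0796), although the ranges did not overlap. Gstp1, a glutathione transferase with a near-identical neighbour that could share its reads, had 70.0, 66.7 and 77.3 CPM in UK5099 and 79.6, 75.6 and 78.5 CPM in Mpc1-KO, against 44.7, 49.0 and 47.1 CPM in Vehicle, and did not differ between the arms beyond their spread (-0.13 ± 0.07 SE). In the test of the difference, 14 of the 29 were higher in UK5099 and 3 were lower, against 23.2% and 21.1% of all genes tested. With the 6 libraries as a single group, 5 of the 29 passed.

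Genes induced by AHR, the receptor that senses planar aromatic ligands, differed widely between drug and deletion. Of 11 measured, 7 rose and 1, the amino acid transporter gene Slc7a5, fell (none fell without any 1 of the Vehicle libraries), and 6 lay above Vehicle in all 6 libraries, among them Cyp1a1, which passed the filter of 1 CPM only through UK5099. No member passed with the 6 libraries as a single group. Cyp1b1, a cytochrome P450, had 196, 235 and 192 CPM in UK5099 and 10.5, 9.69 and 9.24 CPM in Mpc1-KO, against 6.66, 7.19 and 6.86 CPM in Vehicle. The groups were in 3 separate ranges, and the changes were 4.81 ± 0.09 in UK5099 and 0.48 ± 0.09 in Mpc1-KO (difference 4.33 ± 0.09, adjusted p = 8.46e-09). Aldh3a1, an aldehyde dehydrogenase, had 359, 259 and 212 CPM in UK5099 and 7.94, 6.22 and 6.99 CPM in Mpc1-KO, against 5.30, 3.07 and 3.09 CPM in Vehicle. Both Aldh3a1 and Nqo1 were counted in the AHR and in the NRF2 list, so the counts of these lists are not separate. Cyp1b1 and Aldh3a1 were many times higher in UK5099 than in Mpc1-KO, where the values cleared Vehicle by a small margin. Tiparp, which dampens the receptor, had 142, 233 and 243 CPM in UK5099 and 119, 108 and 110.3 CPM in Mpc1-KO, against 73.2, 85.7 and 84.4 CPM in Vehicle. Cyp1a1, the classic target, had 76, 105 and 36 reads in UK5099 libraries and 2 reads in each Mpc1-KO library, against 0 in each Vehicle library, where a count of 0 allows up to 3 reads, so the Mpc1-KO libraries were not distinguishable from Vehicle at this depth.

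Squamous and cornification genes, the programme of stratified epithelia such as skin and oesophagus, showed a wide gap between drug and deletion. Of 33 measured, 28 rose and none fell in the pooled test, 16 lay above Vehicle in all 6 libraries (48.5%), and 30 were higher in UK5099 than in Mpc1-KO with none lower. The median log2 fold change was 2.10 in UK5099 and 0.27 in Mpc1-KO, where 5 genes passed on their own. None passed with the 6 libraries as a single group. Krt13, the keratin of non-cornifying squamous layers, had 361, 636 and 452 CPM in UK5099 and 26.7, 16.4 and 26.5 CPM in Mpc1-KO, against 13.0, 8.10 and 13.6 CPM in Vehicle (5.32 ± 0.26 in UK5099, 0.97 ± 0.26, adjusted p = 0.0416 in Mpc1-KO). Krtdap, a secreted protein of differentiating keratinocytes, had 63.9, 124 and 113 CPM in UK5099 and 3.41, 2.89 and 3.91 CPM in Mpc1-KO, against 1.13, 0.730 and 0.544 CPM in Vehicle. Tgm1, the transglutaminase that cross-links the cornified envelope, had 79.8, 153 and 148 CPM in UK5099 and 32.7, 25.1 and 31.5 CPM in Mpc1-KO, against 15.2, 15.6 and 17.2 CPM in Vehicle. In all 3 the Mpc1-KO values lay between UK5099 and Vehicle. Crnn, cornulin, was nearer between the arms, with 203, 498 and 520.4 CPM in UK5099, 188, 135 and 162 CPM in Mpc1-KO and 59.1, 52.5 and 54.9 CPM in Vehicle (2.74 ± 0.30 and 1.52 ± 0.30). Scel, sciellin of the cornified envelope, had 18.9, 56.1 and 54.0 CPM in UK5099 and 9.92, 7.69 and 9.65 CPM in Mpc1-KO, against 4.39, 3.25 and 4.73 CPM in Vehicle. Cyp4f39, a hydroxylase of very long fatty acids, had 85.5, 152 and 140.3 CPM in UK5099 and 28.0, 20.3 and 24.7 CPM in Mpc1-KO, against 11.5, 12 and 12.1 CPM in Vehicle. Rptn, repetin, and Nccrp1 were near absent outside UK5099, Rptn with 12.2, 64.8 and 56.0 CPM in UK5099 and 0.975, 0.444 and 0.414 CPM in Mpc1-KO, against 0.272, 0.219 and 0.167 CPM in Vehicle. The corresponding Nccrp1 levels were 34.2, 173 and 119.6 CPM in UK5099 and 2.37, 2.31 and 2.16 CPM in Mpc1-KO, against 0.951, 0.985 and 1.46 CPM in Vehicle. UK5099 1 was the lowest of the 3 UK5099 libraries for each of these genes. The sum over 5 markers of urothelium, another stratified epithelium, was also higher in UK5099. It was 155 to 318 CPM in UK5099 and 45.9 to 51.9 CPM in Mpc1-KO, against 44.2 to 49.4 CPM in Vehicle. Krt20, the keratin of urothelial umbrella cells, was the largest part of the sum in UK5099, with 71.8, 258 and 195 CPM in UK5099 and 17.8, 13.2 and 15.2 CPM in Mpc1-KO, against 14.5, 12.3 and 16.5 CPM in Vehicle. Upk2 stayed under 1 CPM in all 9 libraries, and the part of urothelial cells in the squamous values was not tested. Sprr2h, from a family of near-identical small proline-rich genes whose reads could be split, had 63.5, 177 and 159 CPM in UK5099, 14.9, 13.2 and 14.5 CPM in Mpc1-KO and 6.21, 5.15 and 6.36 CPM in Vehicle.

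Basal markers moved in both directions, Krt5 and Trp63 upwards and Itgb4 downwards. Of 20 measured, 10 rose and 5 fell, with 4 above and 4 below Vehicle in all 6 libraries (20% each, against 8.26% and 8.15% of all genes). Krt5 had 6833, 6689.6 and 5939.7 CPM in UK5099 and 2233, 1986 and 2046 CPM in Mpc1-KO, against 1701, 1557 and 1628 CPM in Vehicle (1.99 ± 0.08 and 0.36 ± 0.08, adjusted p = 3.23e-07 and 0.0209). Trp63, which encodes p63, had 323, 369 and 328 CPM in UK5099 and 225, 219 and 217 CPM in Mpc1-KO, against 181, 208 and 205 CPM in Vehicle, and the Mpc1-KO change did not pass alone (0.16 ± 0.07, adjusted p = 0.179). Krt14 was not shared, with 4611, 5109 and 3885 CPM in UK5099 and 1126, 1072 and 1045 CPM in Mpc1-KO, against 1369, 1183 and 1181 CPM in Vehicle, so that its Mpc1-KO values were all under the Vehicle range. Those below included Lama3 and Lamb3, which encode laminin chains of the basement membrane, and Itgb4, an integrin chain of the hemidesmosome. Itgb4 had 2046, 1952 and 1804 CPM in UK5099 and 1878, 1910.3 and 1844 CPM in Mpc1-KO, against 2264, 2336 and 2207 CPM in Vehicle (-0.25 ± 0.05, adjusted p = 0.00817). The UK5099 and Mpc1-KO values of Itgb4 overlapped each other below Vehicle (UK5099 minus Mpc1-KO 0.04 ± 0.06 SE). Without Vehicle 1, 7 basal markers lay below the other 2 Vehicle libraries.

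Luminal markers did not move as a group. Of 21 measured, 5 rose and 6 fell, with 3 on each side in all 6 libraries (14.3% each, against 8.26% above and 8.15% below over all genes). Krt8 had 625, 499 and 453 CPM in UK5099 and 664, 675 and 619.7 CPM in Mpc1-KO, against 884, 713 and 704 CPM in Vehicle (-0.39 ± 0.10, adjusted p = 0.0234), where the Mpc1-KO change alone was -0.22 ± 0.12 (adjusted p = 0.263). Krt18 had 959, 830.0 and 915 CPM in UK5099 and 1373, 1398 and 1340.2 CPM in Mpc1-KO, against 1361, 1289.9 and 1273 CPM in Vehicle, so that it fell in UK5099 (-0.54 ± 0.06, adjusted p = 0.000133) and overlapped Vehicle in Mpc1-KO. Prom1, a membrane protein of luminal progenitors, had 54.2, 65.2 and 61.4 CPM in UK5099 and 173, 176 and 166 CPM in Mpc1-KO, against 192, 218 and 200.1 CPM in Vehicle. The Prom1 values of UK5099 stood far below both other groups. The homeobox gene Hoxb13 had 27.8, 30.9 and 29.1 CPM in UK5099, 36.4, 36.9 and 34.3 CPM in Mpc1-KO and 29.4, 31.0 and 30.4 CPM in Vehicle, and the UK5099 and Vehicle ranges overlapped. The list counts rest in part on Vehicle 1, without which 3 luminal markers fell, and on UK5099 1, without which 8 rose.

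Among secreted defence proteins of luminal cells, 8 of 13 measured fell and 3 rose, with 6 below (46.2%) and 2 above (15.4%) Vehicle in all 6 libraries, against 8.15% and 8.26% of all genes. Dmbt1, a scavenger receptor of mucosal surfaces, had 1.12, 0.267 and 0.424 CPM in UK5099 and 3.45, 3.6 and 3.08 CPM in Mpc1-KO, against 22.4, 18.8 and 21.2 CPM in Vehicle, the widest separation of the 1010 genes below (2.23 on the log2 scale). Clu, clusterin, a secreted chaperone, had 913, 369.8 and 527 CPM in UK5099 and 1841, 2167 and 1937 CPM in Mpc1-KO, against 4248, 4202 and 4173 CPM in Vehicle (-2.0 ± 0.22, adjusted p = 0.000204). Nos2, the inducible nitric oxide synthase, had 1.48, 5.14 and 1.94 CPM in UK5099 and 16.9, 17.9 and 14.5 CPM in Mpc1-KO, against 24.3, 30.4 and 31.6 CPM in Vehicle. In all 3 the Mpc1-KO values lay between UK5099 and Vehicle. Ltf, lactoferrin, and Defb1, a beta-defensin, were the members above. Ltf had 45.0, 50.9 and 56.9 CPM in UK5099 and 92.5, 81.2 and 91.4 CPM in Mpc1-KO, against 42.0, 38.6 and 41.1 CPM in Vehicle, so that the deletion went further (-0.79 ± 0.09, adjusted p = 0.000107). Defb1 had 15.6, 25.4 and 31.3 CPM in UK5099, 8.49, 5.87 and 8.55 CPM in Mpc1-KO and 3.04, 2.92 and 3.64 CPM in Vehicle, so that the drug went further (1.56 ± 0.24, adjusted p = 0.000662).

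Interferon-stimulated genes, which cells switch on through STAT and IRF factors, fell. Of 47 measured, 22 fell and none rose, and 18 lay below Vehicle in all 6 libraries (38.3% against 8.15% of all genes), with medians of -0.63 in UK5099 and -0.38 in Mpc1-KO. Most calls came from the drug, since 27 passed as lower in UK5099 alone and 4 in Mpc1-KO alone. With the 6 libraries as a single group, 2 passed as lower. Gbp2, an interferon-induced GTPase of a family with close copies, had 7.34, 4.45 and 8.19 CPM in UK5099 and 5.54, 5.64 and 6.94 CPM in Mpc1-KO, against 12, 11.9 and 14.8 CPM in Vehicle (-0.94 ± 0.20 and -1.03 ± 0.20, adjusted p = 0.0048 and 0.0139). Rsad2, viperin, had 3.13, 3.05 and 5.28 CPM in UK5099 and 5.67, 7.16 and 10.1 CPM in Mpc1-KO, against 13.5, 10.3 and 14.5 CPM in Vehicle, and Mpc1-KO 3 nearly reached Vehicle 2. Gbp3 had 1.40, 0.647 and 2.30 CPM in UK5099 and 1.15, 0.978 and 1.88 CPM in Mpc1-KO, against 3.53, 2.74 and 3.81 CPM in Vehicle. The 3 genes kept every UK5099 and Mpc1-KO value under the lowest Vehicle value. Replicates varied more here than in the division genes, the list mean being -1.07 to -0.30 in UK5099 and -0.50 to -0.17 in Mpc1-KO, against -0.12 to 0.19 in Vehicle. The count of 22 was 12 without Vehicle 2 and 9 without Vehicle 3. Of 7 immune cell markers, all but Cd68, a lysosomal protein, stayed under 1 CPM. Ptprc, which marks all leukocytes, was at most 0.190 CPM in any library, and Adgre1 was at 0 in all 9. The 7 markers summed to 11.8 to 29.9 CPM in UK5099 and 45.5 to 52.5 CPM in Mpc1-KO, against 35.8 to 49.1 CPM in Vehicle. A longer list of 14 immune cell genes summed to 45.9 to 54.3 CPM in UK5099 and 99.7 to 102 CPM in Mpc1-KO, against 99.2 to 102 CPM in Vehicle. Of these 14, 2 averaged 1 CPM or more, and both were lower in UK5099 than in Mpc1-KO.

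The interferon-stimulated response element, searched on both strands as GAAA, any 2 bases and GAAA, occurred in 3.44% of all 32851 promoter windows. Only 36 of the 47 genes had a window, under the 80% needed to read a share, so the share over the list is not given. Rsad2 (chr12:26456453-26456652, minus strand), Gbp3 (chr3:142559844-142560043, plus strand) and Bst2 (chr8:71537473-71537672, minus strand) are shown because the element lies within 200 bases of their start, with its letters in capitals in either orientation and coordinates in GRCm38.p6.
Rsad2: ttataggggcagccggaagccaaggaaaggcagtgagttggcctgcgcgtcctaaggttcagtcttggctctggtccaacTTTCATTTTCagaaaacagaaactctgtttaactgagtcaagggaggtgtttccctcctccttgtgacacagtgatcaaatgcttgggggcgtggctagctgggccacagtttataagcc
Gbp3: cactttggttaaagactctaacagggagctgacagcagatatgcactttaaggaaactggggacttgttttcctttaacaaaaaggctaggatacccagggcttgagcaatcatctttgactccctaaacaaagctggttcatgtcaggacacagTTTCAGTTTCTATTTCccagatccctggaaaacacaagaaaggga
Bst2: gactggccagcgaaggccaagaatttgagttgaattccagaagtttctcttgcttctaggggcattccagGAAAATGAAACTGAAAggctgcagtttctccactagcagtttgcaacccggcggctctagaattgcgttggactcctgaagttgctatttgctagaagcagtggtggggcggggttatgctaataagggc
Bst2, tetherin, which holds virus particles at the cell surface and was chosen for this display after its values were seen, had 6.66, 4.34 and 7.82 CPM in UK5099 and 13.0, 11.6 and 15.4 CPM in Mpc1-KO, against 16.5, 18.7 and 21.8 CPM in Vehicle. In Gbp3 and Bst2 the capitals cover 2 overlapping copies of the element.

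Antigen presentation genes followed the same direction. Of 15 measured, 10 fell and none rose, and 5 lay below Vehicle in all 6 libraries (33.3%), although none passed in Mpc1-KO alone or with the 6 libraries as a single group. Psmb8, an immunoproteasome subunit, had 2.89, 3.54 and 5.46 CPM in UK5099 and 7.10, 8.31 and 7.95 CPM in Mpc1-KO, against 8.84, 9.67 and 11.6 CPM in Vehicle. Tapbp, which loads peptides onto MHC class I, had 203, 203 and 215 CPM in UK5099 and 273, 267 and 281 CPM in Mpc1-KO, against 291, 328 and 332 CPM in Vehicle (-0.21 ± 0.06 in Mpc1-KO, adjusted p = 0.0547). The count of 10 was 6, 6, 5 and 6 without Mpc1-KO 1, Mpc1-KO 3, Vehicle 2 and Vehicle 3, and 11 lay below Vehicle without Vehicle 1.

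Of 30 cytokine, chemokine and NF-kB feedback genes, 11 fell and 3 rose, with 9 below (30%) and Ccl20, Il33 and Tnfaip2 above (10%) Vehicle in all 6 libraries. Over all genes 8.15% lay below and 8.26% above. Csf2, the cytokine GM-CSF, had 32.0, 19.2 and 20.5 CPM in UK5099 and 30.7, 32.1 and 24.7 CPM in Mpc1-KO, against 128, 61.4 and 64.9 CPM in Vehicle, where Vehicle 1 was the highest (-1.60 ± 0.24, adjusted p = 0.00107). Il23a, a subunit of interleukin-23, had 6.58, 4.26 and 3.46 CPM in UK5099 and 4.32, 5.51 and 4.09 CPM in Mpc1-KO, against 10.4, 9.05 and 9.24 CPM in Vehicle, with changes of -0.98 ± 0.20 and -0.98 ± 0.20. Both arms lowered Csf2 and Il23a to overlapping levels. Cxcl2, a neutrophil chemokine, had 54.4, 97.6 and 64.3 CPM in UK5099 and 128, 125 and 108 CPM in Mpc1-KO, against 158, 142 and 166 CPM in Vehicle. Against this direction, Il33, an alarmin of barrier epithelia, had 752, 639.8 and 698 CPM in UK5099 and 245, 231 and 243 CPM in Mpc1-KO, against 220.1, 173 and 186 CPM in Vehicle. Ccl20, a chemokine for CCR6-bearing lymphocytes, had 7.02, 9.33 and 7.94 CPM in UK5099, 6.93, 6.44 and 4.92 CPM in Mpc1-KO and 3.72, 2.96 and 4.18 CPM in Vehicle. Without UK5099 1, 6 rose in place of 3.

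Most measured matrix and mesenchymal genes fell. Of the 22 genes listed, 10 were measured, of which 7 fell and 2 rose, with 5 below and 1 above Vehicle in all 6 libraries. Fn1, fibronectin, had 587, 254 and 386 CPM in UK5099 and 2685, 3536 and 3027 CPM in Mpc1-KO, against 6618, 7734 and 6998 CPM in Vehicle (-4.20 ± 0.24 and -1.21 ± 0.24, adjusted p = 1.69e-06 and 0.0149). Vim, the intermediate filament of mesenchymal cells, had 9.18, 10.3 and 5.94 CPM in UK5099 and 37.1, 53.1 and 38.2 CPM in Mpc1-KO, against 129, 188 and 169.9 CPM in Vehicle. The 3 groups were in separate ranges for both genes. Pdgfra, a fibroblast receptor, had 1.00, 0.914 and 0.970 CPM in UK5099 and 0.453, 1.16 and 0.506 CPM in Mpc1-KO, against 2.04, 2.7 and 2.26 CPM in Vehicle. Snai2, a transcription factor of epithelial-mesenchymal transition that basal cells also express, rose, with 61.1, 60.7 and 73.0 CPM in UK5099 and 47.8, 44.8 and 46.0 CPM in Mpc1-KO, against 32.6, 36.4 and 35.1 CPM in Vehicle. Of 8 mesenchymal cell markers, Thy1 and Col1a2 were at 0 in all 9 libraries, 4 stayed under 1 CPM, and the sum was 23.4 to 25.6 CPM in UK5099 and 49.4 to 65.2 CPM in Mpc1-KO, against 138 to 205 CPM in Vehicle, of which Vim was the largest part in Mpc1-KO and Vehicle. Dcn, decorin of fibroblasts, rose, with 10.3, 11.2 and 14.2 CPM in UK5099 and 10.3, 6.44 and 6.43 CPM in Mpc1-KO, against 1.27, 7.92 and 1.25 CPM in Vehicle, and these ranges overlapped. The part that a mesenchymal cell fraction had in these values was not tested. Without Vehicle 3, 4 of the 10 fell, and without Vehicle 1 or Vehicle 3, 1 rose.

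Genes of Wnt signalling moved in both directions. Wif1, a secreted Wnt inhibitor, had 63.2, 67.6 and 55.3 CPM in UK5099 and 31.2, 27.5 and 27.7 CPM in Mpc1-KO, against 8.97, 7.30 and 10.6 CPM in Vehicle (2.74 ± 0.13 and 1.65 ± 0.13, adjusted p = 6.87e-07 and 0.000537). The ligand gene Wnt5a fell in both arms, with 86.1, 87.5 and 79.6 CPM in UK5099 and 67.3, 89.4 and 72.3 CPM in Mpc1-KO, against 123, 140.3 and 131 CPM in Vehicle (UK5099 -0.63 ± 0.10, Mpc1-KO -0.79 ± 0.10). Wnt6 rose, with 2.97, 3.62 and 3.70 CPM in UK5099 and 2.26, 1.91 and 1.75 CPM in Mpc1-KO, against 0.725, 0.803 and 1.21 CPM in Vehicle. Lgr6, a receptor for R-spondins, had 14.6, 6.13 and 5.88 CPM in UK5099 and 9.5, 11.6 and 9.47 CPM in Mpc1-KO, against 33.0, 32.6 and 30.9 CPM in Vehicle. Of 22 Wnt genes measured, 4 rose and 6 fell, with 3 falling without Vehicle 2 or Vehicle 3. In all 6 libraries 3 of the 22 lay above Vehicle (13.6%) and 6 below (27.3%), against 8.26% and 8.15% of all genes. Of 25 BMP and TGF-beta genes, none rose and 7 fell, with 11 falling and 2 rising without UK5099 1, 1 rising without UK5099 2 and 4 falling without Vehicle 2. The signal transducer gene Smad2 lay above Vehicle in all 6 libraries (4%) and 5 genes lay below (20%), against 8.26% and 8.15% of all genes. Inhba, the activin A subunit, had 1003, 826 and 821 CPM in UK5099 and 1042, 1139 and 1081 CPM in Mpc1-KO, against 1612, 1506 and 1531 CPM in Vehicle. Ltbp2, a latent TGF-beta binding protein of the matrix, had 10.5, 8.95 and 10.2 CPM in UK5099 and 33.1, 38.8 and 33.9 CPM in Mpc1-KO, against 59.2, 71.9 and 64.0 CPM in Vehicle. Of 34 genes of the EGF receptor, ERK and immediate early group, 9 rose and 6 fell, but these counts ran between 2 and 14 and between 3 and 6 with single libraries left out. In all 6 libraries 4 of the 34 lay above Vehicle (11.8%) and 5 below (14.7%). Fos had 207, 319 and 268 CPM in UK5099 and 282, 230.2 and 244 CPM in Mpc1-KO, against 439.6, 437 and 361 CPM in Vehicle (-0.68 ± 0.13, adjusted p = 0.00369). Egr3, another immediate early gene, had 49.0, 46.3 and 49.5 CPM in UK5099 and 17.0, 15.2 and 16 CPM in Mpc1-KO, against 13.2, 11.4 and 13.6 CPM in Vehicle (1.10 ± 0.08, adjusted p = 2.11e-05).

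Shares above Vehicle differed between the lists of metabolic genes. Mpc2, the partner subunit, had 16.8, 12.6 and 11.2 CPM in UK5099 and 12.2, 11.4 and 13.1 CPM in Mpc1-KO, against 10.8, 11 and 9.87 CPM in Vehicle. It was outside the Vehicle range in all 6 libraries but did not pass the test (0.27 ± 0.12, adjusted p = 0.159). Pcx, pyruvate carboxylase, had 49.3, 90.1 and 95.2 CPM in UK5099 and 43.7, 36.2 and 39.3 CPM in Mpc1-KO, against 24.5, 29.0 and 29.4 CPM in Vehicle (0.97 ± 0.18, adjusted p = 0.00395). Pdp2, a phosphatase that activates pyruvate dehydrogenase, had 33.6, 36.9 and 33.7 CPM in UK5099 and 31.1, 27.2 and 30.5 CPM in Mpc1-KO, against 23.4, 22.8 and 23.7 CPM in Vehicle (0.45 ± 0.07, adjusted p = 0.00102). Of the 14 genes of pyruvate entry, 4 rose and 1, Mpc1, fell, with 2 rising without any 1 library of Mpc1-KO or without Vehicle 2 or Vehicle 3. In all 6 libraries 4 of the 14 lay above Vehicle (28.6%, against 8.26% of all genes) and none below. Among 21 glycolysis and lactate genes only Slc16a1, the lactate and pyruvate transporter MCT1, rose, with 26.1, 32.4 and 27.7 CPM in UK5099 and 37.4, 34.5 and 39.8 CPM in Mpc1-KO, against 23.2, 25.3 and 23.5 CPM in Vehicle, further in the deletion (-0.37 ± 0.09, adjusted p = 0.0101). Without UK5099 1, 9 of these 21 rose. Of 19 TCA cycle genes, Cs and Suclg2 rose and Idh2 fell, while 7 rose after rescaling by either median of ratios or TMM, and between 1 and 5 rose with single libraries left out. No gene of the list fell when any library other than UK5099 1 was left out. Of 67 respiratory chain genes encoded in the nucleus, 20 rose, none fell and 19 lay above Vehicle in all 6 libraries (28.4%). Most of this came with the drug, since 37 passed as higher in UK5099 alone and 2 in Mpc1-KO alone, the median log2 fold change was 0.24 in UK5099 and 0.06 in Mpc1-KO, and 30 were higher in UK5099 than in Mpc1-KO. Uqcr10, a subunit of complex III, had 42.7, 34.8 and 38.9 CPM in UK5099 and 38.2, 34.8 and 34.6 CPM in Mpc1-KO, against 29.7, 27.0 and 28.9 CPM in Vehicle. The count of 20 was 10, 13 and 12 without Mpc1-KO 1, 2 and 3, and 7 and 6 without Vehicle 2 and 3.

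Cholesterol synthesis rose mainly with the drug. Of 26 cholesterol synthesis genes, 18 rose in the pooled test, yet the median was 0.73 in UK5099 and 0.05 in Mpc1-KO, 23 were higher in UK5099 than in Mpc1-KO, and 5 lay above Vehicle in all 6 libraries. The pooled count was 7 without Vehicle 2 and 9 without Vehicle 3, and 13 lay above Vehicle without Vehicle 1. Stard4, which moves cholesterol between membranes, had 109.5, 148 and 126 CPM in UK5099 and 104, 104 and 104 CPM in Mpc1-KO, against 80.3, 71.3 and 77.3 CPM in Vehicle. Acss2, which makes acetyl-CoA from acetate, had 46.8, 100.4 and 91.2 CPM in UK5099 and 56.7, 54.8 and 55.1 CPM in Mpc1-KO, against 34.3, 32.8 and 34.4 CPM in Vehicle (0.93 ± 0.19, adjusted p = 0.00696). Psat1, an enzyme of serine synthesis, had 191, 149 and 144 CPM in UK5099 and 108, 99.2 and 101 CPM in Mpc1-KO, against 77.3, 64.5 and 67.1 CPM in Vehicle. In the other direction, Slc38a1, a glutamine transporter, fell, with 2.08, 2.67 and 2.24 CPM in UK5099 and 6.23, 6.31 and 6.20 CPM in Mpc1-KO, against 10.6, 13.2 and 15.2 CPM in Vehicle. Each of these 4 genes was outside the Vehicle range in all 6 libraries. Angptl4, an inhibitor of lipoprotein lipase, had 2.08, 2.28 and 2.12 CPM in UK5099, 3.90, 6.49 and 4.92 CPM in Mpc1-KO and 11.8, 15.7 and 14.8 CPM in Vehicle.

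Several of the genes below Vehicle with the largest change in their weaker arm were nearly silent in UK5099. Ctla2a, an inhibitor of cathepsins, had 1.08, 0.152 and 0.243 CPM in UK5099 and 3.66, 5.42 and 2.85 CPM in Mpc1-KO, against 19.2, 23.9 and 22.9 CPM in Vehicle. Rgs4, which shortens G-protein signals, had 1.56, 0.838 and 0.546 CPM in UK5099 and 5.05, 4.40 and 4.73 CPM in Mpc1-KO, against 23, 19.6 and 25.4 CPM in Vehicle. The neural and progenitor transcription factor gene Sox11 had 6.09, 1.75 and 3.70 CPM in UK5099 and 8.88, 14.0 and 8.87 CPM in Mpc1-KO, against 36.5, 43.2 and 44.8 CPM in Vehicle. In these 3 the groups were in 3 separate ranges, lowest in UK5099. Tnfrsf11b, osteoprotegerin, had 1.68, 0.876 and 0.546 CPM in UK5099 and 3.20, 3.87 and 1.79 CPM in Mpc1-KO, against 11.1, 10.7 and 14.8 CPM in Vehicle. Adgra1, an adhesion G-protein coupled receptor gene, had 0.762, 0.228 and 0.424 CPM in UK5099 and 4.94, 5.73 and 5.65 CPM in Mpc1-KO, against 18.0, 20.3 and 21.7 CPM in Vehicle. Ccbe1, needed for lymphatic growth through VEGF-C, had 2.12, 4.07 and 2.79 CPM in UK5099 and 11.7, 13.2 and 10.7 CPM in Mpc1-KO, against 30.2, 42.2 and 35.8 CPM in Vehicle. Serpinb9, an inhibitor of granzyme B, was nearer between the arms, with 5.05, 2.28 and 2.55 CPM in UK5099 and 4.91, 5.96 and 5.01 CPM in Mpc1-KO, against 18.8, 17.6 and 17.1 CPM in Vehicle. Spp1, osteopontin, varied most between replicates, with 40.3, 6.02 and 11.8 CPM in UK5099 and 17.5, 24.2 and 19.3 CPM in Mpc1-KO, against 96.3, 62.3 and 57.2 CPM in Vehicle, and did not pass in Mpc1-KO alone (adjusted p = 0.0593). Cytip, a cytohesin-binding protein, was lowered mainly by the drug, with 3.49, 2.63 and 4.06 CPM in UK5099 and 27.0, 30.9 and 28.8 CPM in Mpc1-KO, against 35.1, 37.4 and 38.5 CPM in Vehicle.

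On the side above Vehicle, Mmp3, the matrix protease stromelysin-1, had 126, 192 and 183 CPM in UK5099 and 103, 109 and 107 CPM in Mpc1-KO, against 48.4, 42.7 and 47.1 CPM in Vehicle. Ch25h, which makes 25-hydroxycholesterol, had 5.37, 10.9 and 12.4 CPM in UK5099 and 6.27, 4.89 and 5.19 CPM in Mpc1-KO, against 2.22, 2.48 and 2.17 CPM in Vehicle. Nrg2, a ligand of ErbB receptors, had 8.10, 11.6 and 12.7 CPM in UK5099 and 6.51, 5.11 and 7.40 CPM in Mpc1-KO, against 2.40, 2.99 and 2.80 CPM in Vehicle. Each was more than 2-fold higher in both arms (log2 fold changes in Mpc1-KO of 1.20 ± 0.14, 1.09 ± 0.26 and 1.07 ± 0.19 SE). Oit1 had 38.8, 35.0 and 41.2 CPM in UK5099 and 19.9, 18.7 and 19.7 CPM in Mpc1-KO, against 9.06, 7.26 and 8.03 CPM in Vehicle, further from Vehicle in UK5099 (0.96 ± 0.10, adjusted p = 6.72e-05).

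The deletion went further than the drug in a few genes below Vehicle as well. Nt5e, the ecto-nucleotidase CD73, had 169, 127 and 155 CPM in UK5099 and 82.4, 95.6 and 85.6 CPM in Mpc1-KO, against 188, 198 and 185 CPM in Vehicle (0.77 ± 0.10, adjusted p = 0.000227). Kit, the receptor of stem cell factor, had 12.4, 13.4 and 9.28 CPM in UK5099 and 7.28, 7.91 and 7.72 CPM in Mpc1-KO, against 14.0, 19.9 and 19.2 CPM in Vehicle (0.57 ± 0.16, adjusted p = 0.0183). UK5099 values lay between Mpc1-KO and Vehicle for both. Lrrk2, a kinase, had 7.34, 5.03 and 5.46 CPM in UK5099 and 2.79, 4.04 and 3.26 CPM in Mpc1-KO, against 7.66, 7.88 and 7.44 CPM in Vehicle. Kcnk12, a potassium channel gene, had 25.4, 18.2 and 19.9 CPM in UK5099 and 14.2, 13.1 and 13.5 CPM in Mpc1-KO, against 33.1, 29.6 and 30.2 CPM in Vehicle.

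Some genes lay on opposite sides of Vehicle in the 2 arms and so were outside the rule. For 467 of the 12396 genes tested all UK5099 values lay above and all Mpc1-KO values below the Vehicle range, and for 573 the reverse held. These counts take only genes that also passed the test of UK5099 against Mpc1-KO. Beside them, 1024 genes lay above and 1010 below Vehicle in all 6 libraries, counted without any test. Nat8l, which makes N-acetylaspartate, had 46.8, 63.5 and 33.5 CPM in UK5099 and 0.766, 0.533 and 0.368 CPM in Mpc1-KO, against 1.95, 1.35 and 1.13 CPM in Vehicle. Gsn, the actin-severing protein gelsolin, had 129, 200.4 and 154 CPM in UK5099 and 47.9, 47.3 and 40.8 CPM in Mpc1-KO, against 74.0, 83.8 and 82.7 CPM in Vehicle, with changes of 0.98 ± 0.14 and -0.82 ± 0.14 and a pooled change of 0.08 ± 0.12 (adjusted p = 0.694). Thbs2, a matrix glycoprotein, had 26.9, 25.2 and 17.6 CPM in UK5099 and 4.14, 3.07 and 2.71 CPM in Mpc1-KO, against 7.25, 6.39 and 4.68 CPM in Vehicle. Il4i1, an L-amino acid oxidase, lay the other way, with 2.45, 2.02 and 2.00 CPM in UK5099 and 9.43, 10.1 and 11.7 CPM in Mpc1-KO, against 5.66, 5.37 and 6.52 CPM in Vehicle. Vsir, the checkpoint protein VISTA, had 5.33, 13.7 and 17.3 CPM in UK5099 and 50.2, 51.2 and 46.7 CPM in Mpc1-KO, against 26.6, 34.7 and 31.8 CPM in Vehicle. In all of these the Vehicle values lay between the 2 arms. Adm, the hypoxia-responsive peptide adrenomedullin, had 4.65, 19.6 and 29.1 CPM in UK5099 and 119.5, 114 and 112 CPM in Mpc1-KO, against 61.3, 79.4 and 65.1 CPM in Vehicle, although neither its pooled change nor the Mpc1-KO change passed (adjusted p = 0.263 and 0.36). The list of hypoxia targets had a median of -0.52 in UK5099 and 0.35 in Mpc1-KO, and 10 of 20 were lower in UK5099 than in Mpc1-KO, against 21.1% of all genes tested. By library the list's median against the Vehicle mean was -1.58, -0.04 and -0.16 in UK5099, of which UK5099 1 stood apart, and 0.40, 0.34 and 0.29 in Mpc1-KO, against -0.16, 0.10 and 0.05 in Vehicle. In the pooled test 2 of them rose and none fell, while 8 rose and 3 fell without UK5099 1.

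Of 24 p53 targets, 3 rose and 6 fell, with 10 falling without UK5099 1, and 4 lay below Vehicle in all 6 libraries (16.7%, against 8.15% of all genes). Mdm2, the p53 inhibitor, had 123, 114 and 142 CPM in UK5099 and 172, 172 and 174 CPM in Mpc1-KO, against 193, 184 and 190.4 CPM in Vehicle (-0.36 ± 0.06, adjusted p = 0.00284). Of 24 ATF4 and serine synthesis genes 4 rose and 4 fell (4 to 6 and 1 to 7 with single libraries left out). Of 25 fatty acid oxidation genes 3 rose and 5 fell (1 to 7 and 3 to 6), and Hadha and Etfa lay above and Acadl, Eci2, Decr1 and Angptl4 below (16%) Vehicle in all 6 libraries. Of 75 mitochondrial ribosome genes 1 rose and 1 fell (0 to 5 and 0 to 2), and 7 lay above Vehicle in all 6 libraries (9.33%), or 18 without Vehicle 1. Of 12 genes of retinoic acid handling 5 rose and 5 fell (4 to 5 and 3 to 6 with single libraries left out), with 2 above (16.7%) and 1 below (8.33%) Vehicle in all 6 libraries. Of 18 claudin and tight junction genes 1 rose and 3 fell (1 to 3 and 3 to 5), with 1 above (5.56%) and 2 below (11.1%). The claudin shares and the 9.33% of mitochondrial ribosome genes were near the 8.26% above and 8.15% below of all genes. The 16% below in fatty acid oxidation and the 16.7% above in retinoic acid handling were higher, but rest on 4 and 2 genes. Of 13 Notch genes 4 rose and 1, the ligand gene Jag1, fell, and the ligand genes Dll1 and Jag2 lay above Vehicle in all 6 libraries (15.4%).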

How the data were processed

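RNA-seq was done on 9 libraries of mouse prostate basal-derived organoids, 3 each of UK5099, Mpc1-KO and Vehicle, grouped by their labels. According to the study's methods and the submitters' processing notes, the authors made stranded mRNA libraries (single-end reads), aligned them to GRCm39 with STAR 2.7.9a and normalised gene counts in Partek. The deposited table holds CPM with 0.0001 added by the authors to each value, so that depth had to be read from the CPM worth of 1 read: 16490828 to 28725524 reads per library, at which 3 reads are 0.104 to 0.182 CPM. The sources used here do not give the strand setting of the counting. Of 52249 entries, 24 were gene names turned into dates, and 1 had no name and held at most 0.000715% of a library.

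The offset was subtracted, genes averaging 1 CPM or more over the 9 libraries were kept, and log2(CPM + 0.5) was fitted with limma 3.58.1 in R 4.3.3 (intensity trend, 9 libraries in 1 fit, Benjamini-Hochberg adjustment over 12396 genes, threshold 0.05). UK5099 and Mpc1-KO were weighted equally against Vehicle, and were each also tested against Vehicle and against each other. A count model was not run, since the deposited values are CPM with an offset, and reads worked back from them served only for depth and single read counts. The gap of a gene is the distance on the log2 scale between the nearest values of the 6 libraries and of Vehicle. The steps were checked on simulated data. The 15 genes in each direction with the largest change in the weaker arm were named, from non-overlapping genes averaging at least 5 CPM. They did not have to pass a test. Up to 4 genes of a list were named on the same measure. Among genes passing the test of UK5099 against Mpc1-KO, the 4 in each direction with the largest difference between the arms and 3 with opposite changes were named. So were 2 on each side of the edge of the rule. Others are said to be chosen after their values were seen or complete a count. The members and lists were chosen with earlier results of these data known. Alternatives were other pseudocounts, filters, scalings, weights, stricter thresholds, a replicate block and leaving out each library. Promoter windows and sequences are from RefSeq (GRCm38.p6). Python 3.11.15, pandas 2.3.3 and matplotlib 3.10.9 made the summaries and figures.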

Additional observations from a re-analysis of the deposited data

Results flagged for a closer look

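In the test of UK5099 against Mpc1-KO, 362 of the 1024 genes above Vehicle in all 6 libraries were higher in UK5099, and 464 of the 1010 genes below were lower in UK5099. These and the following results were picked out because the effects of the drug and of the deletion differed in that test (log2 difference UK5099 minus Mpc1-KO, limma adjusted p below 0.05). The genes above and below were themselves chosen from these UK5099 and Mpc1-KO values, so their counts are a description.

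Among genes above Vehicle, the difference was 5.17 for Aldh3a1, 5.06 for Rptn, 5.01 for Nccrp1 and 4.64 for Krtdap, all further in UK5099. It was -0.79 for Ltf, -0.62 for Prr11, -0.57 for Esco2 and -0.52 for Anln, all further in Mpc1-KO. Among genes below Vehicle, it was -2.99 for Fn1, -2.93 for Cytip, -2.65 for Adgra1 and -2.49 for Nos2, all further in UK5099, and 0.77 for Nt5e, 0.73 for Lrrk2, 0.61 for Kcnk12 and 0.57 for Kit, all further in Mpc1-KO.

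Genes on opposite sides of Vehicle also differed. Nat8l (5.49), Thbs2 (2.63) and Gsn (1.80) were higher in UK5099 than in Mpc1-KO, and Adm (-2.99), Vsir (-2.13) and Il4i1 (-2.04) were lower. The Mpc1-KO change against Vehicle did not pass for Vsir (limma adjusted p = 0.22) or Adm (adjusted p = 0.36), although every Mpc1-KO value lay above Vehicle. The spread used in this test included that of the UK5099 libraries.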

How the results depend on the processing

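The counts of shared genes changed with single libraries and with the strictness of the rule. With each library left out in turn, 880 to 2151 genes rose and 841 to 2442 fell in the pooled test, 1099 to 1713 lay above and 1036 to 1579 below Vehicle, and of the genes above 317 to 574 were higher and 20 to 63 lower in UK5099 than in Mpc1-KO, while of those below 8 to 50 were higher and 395 to 678 lower. The highest counts came without UK5099 1 (2151 up, 2442 down, 1579 below) or Vehicle 1 (1713 above), the lowest pooled counts without Vehicle 2 (880 and 852) or Vehicle 3 (892 and 841), and without UK5099 1, 1020 of the 1024 and 1009 of the 1010 members kept their place. Fewer libraries alone make the rule of no overlap easier to meet. Genes that rose and fell numbered 834 and 800 at an adjusted p below 0.01, 498 and 585 with a change over 1.5-fold, and 232 and 221 with the 6 libraries as a single group. A gap of at least 0.1, 0.25 or 0.5 on the log2 scale left 492, 178 and 45 genes above and 580, 290 and 107 below. Group-wise library weights left 22 genes above that were lower and 9 below that were higher in UK5099 than in Mpc1-KO, and with no filter the second count was 12. Median-of-ratios scaling gave 951 genes above and 1118 below (828 and 913 of the members kept) with 1399 up and 1569 down, and TMM 970 and 1095 (857 and 920 kept) with 1437 and 1529. Of these summary counts over all alternatives, 115 stayed within 1.5 times and 31 did not. Genes that rose outnumbered those that fell in the pooled test with all libraries, but not without UK5099 1, after either rescaling, above 1.5-fold or with no filter (1283 up, 1335 down). Of 158 named genes called in the pooled test, 51 were called under every alternative. A replicate block gave 1564 up and 1456 down. The numbers were not taken as pairing, since deviations of same-numbered libraries correlated at 0.44, 0.14 and 0.31 between UK5099 and Vehicle, but at -0.12, -0.08 and 0.12 between UK5099 and Mpc1-KO and at -0.04, -0.02 and 0.09 between Mpc1-KO and Vehicle. The planned edgeR and DESeq2 fits were not run, since the deposited values are CPM with an added constant, and reads worked back from them were used only for depth and for the few read counts given. At these depths, genes near 1 CPM rest on few reads, and a change within that counting error was not detectable.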
